A study of Mus musculus with 30 samples.

Results

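The junctions that seal the endothelium of brain vessels were followed through 9 genes, Cldn5, Ocln, Marveld2, Lsr, Jam2, F11r, Tjp1, Cgnl1 and Cdh5. They were chosen by name, as genes of tight and adherens junctions, and each symbol was matched to 1 of the 48820 Ensembl gene identifiers of a count table from 30 mouse brain libraries. All 9 passed the filter on low counts in each tissue, although Marveld2 had 9 to 34 counts per library.

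The libraries came from hippocampus and frontal cortex of adult male wild type C57BL/6J mice (8 to 12 weeks old), treated as a model of Gulf War Illness. Every mouse drank water with corticosterone (CORT) at 200 mg/L and ethanol at 0.6% for 7 days, was injected intraperitoneally with the nerve agent surrogate diisopropyl fluorophosphate (DFP, 4 mg/kg) on day 8, and had further 7-day CORT courses in alternate weeks up to week 5. On the last day the mice received saline or the bacterial endotoxin lipopolysaccharide (LPS, 0.5 mg/kg, subcutaneous). The groups, each described in both tissues, were CORT+DFP+saline collected at 6 h (3 libraries a tissue) and CORT+DFP+LPS collected at 6, 12 and 24 h (4 libraries a tissue and time). No group lacked CORT and DFP, so the values describe LPS on top of both agents. Saline groups have the 6 h collection and no later one, so for LPS at 12 and 24 h the treatment and the hour of collection cannot be told apart. A saline library of the hippocampus that the submitters left out was not analysed here.

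In brain capillaries, tight junctions of neighbouring endothelial cells close the gap between them, and adherens junctions below or among them hold the cells together. Claudin-5 forms the strands that stop small molecules, occludin and tricellulin are membrane partners of those strands, junctional adhesion molecules mark the site of the contact, and scaffold proteins tie the strands to actin. Inflammation after LPS is known to loosen this barrier in rodents.

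Per length of transcript, Cldn5 was the most abundant of the 9 genes in every group and Marveld2 the least. In saline hippocampus the mean levels were 24.1 ± 2.64 RPKM (CPM, counts scaled to library size, per kilobase of exon; SD, n = 3) for Cldn5, 9.77 ± 0.876 RPKM for Tjp1, 3.97 ± 0.0572 RPKM for Jam2 and 3.08 ± 0.166 RPKM for Ocln. Cdh5 (2.23 ± 0.271 RPKM), F11r (1.91 ± 0.215 RPKM), Cgnl1 (1.5 ± 0.636 RPKM) and Lsr (1.05 ± 0.301 RPKM) followed, with library ranges that overlapped between neighbours in that order, and Marveld2 stood at 0.264 ± 0.103 RPKM. Cldn5, Tjp1 and Jam2 were the first 3 in all 8 groups. In LPS hippocampus at 24 h Cdh5 (4.12 ± 1.85 RPKM, n = 4) and F11r (4.02 ± 0.13 RPKM) came next and overlapped each other, and Ocln followed at 2.88 ± 0.0881 RPKM. In saline cortex Cdh5 came after these 3 (3.21 ± 0.254 RPKM, n = 3), above F11r (2.17 ± 0.116 RPKM) and Ocln (2.12 ± 0.177 RPKM), which overlapped.

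Endothelial RNA was present in all libraries: each of 18 endothelial markers other than the 9 genes was detected in every group. Their summed level in the hippocampus was 288 to 313 CPM after saline, 269 to 296 CPM at 6 h, 260 to 299 CPM at 12 h and 315 to 330 CPM at 24 h. In the cortex it was 338 to 378 CPM after saline, 295 to 335 CPM at 6 h, 330 to 403 CPM at 12 h and 350 to 440 CPM at 24 h. In whole tissue, fewer endothelial cells and less RNA per endothelial cell cannot be told apart. The 9 genes are not endothelial alone: Tjp1 is made by many brain cells and F11r also by leukocytes and platelets. Totals of 16826882 to 33034295 counts per library gave the 8 genes other than Marveld2 between 41 and 2645 counts each.

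**Figure D1:**
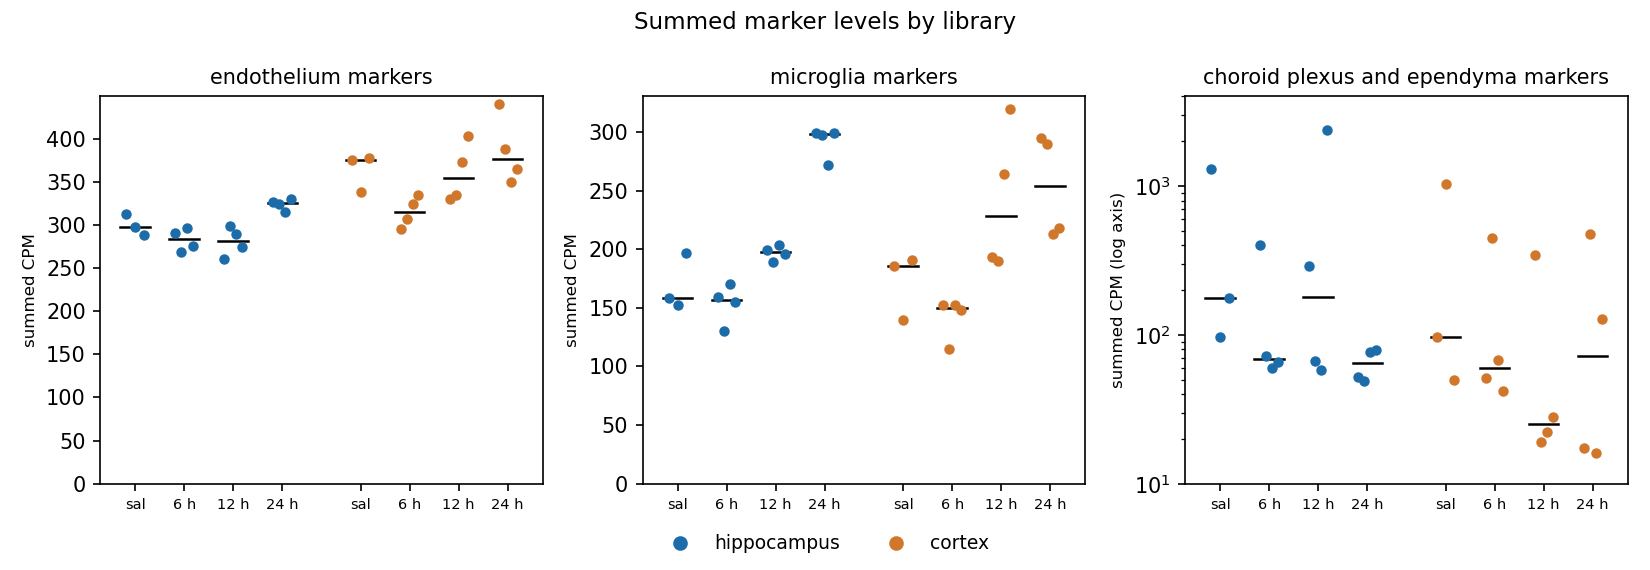
Summed CPM of 18 endothelial, 6 microglial and 9 choroid plexus and ependymal marker genes in each library (points) for saline (sal) and LPS at 6, 12 and 24 h, in hippocampus (blue) and cortex (orange). Black lines are group medians and the choroid plexus axis is logarithmic. Microglial sums at 24 h in the hippocampus (272 to 299 CPM) lie above the saline ones (152 to 197 CPM), and choroid plexus sums reach 2390 CPM in 1 LPS 12 h and 1300 CPM in 1 saline library of the hippocampus.

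The stretches before the annotated starts of F11r and Cldn5 are shown because F11r had the largest called rise of the 9 genes and Cldn5 was the gene called lower. Sequences are from RefSeq on GRCm38.p6, 250 bases upstream of the RefSeq start (for F11r a little downstream of the Ensembl start given below), 5′ to 3′ on the + strand, which is the strand of both genes, at chr1:171437311-171437560 for F11r and chr16:18776597-18776846 for Cldn5. Capitals mark motif matches.
F11r: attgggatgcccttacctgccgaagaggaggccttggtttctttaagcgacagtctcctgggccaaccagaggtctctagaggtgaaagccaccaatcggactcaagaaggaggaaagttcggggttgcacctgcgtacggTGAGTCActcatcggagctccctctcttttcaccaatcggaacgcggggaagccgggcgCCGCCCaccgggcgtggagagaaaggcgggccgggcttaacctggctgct
Cldn5: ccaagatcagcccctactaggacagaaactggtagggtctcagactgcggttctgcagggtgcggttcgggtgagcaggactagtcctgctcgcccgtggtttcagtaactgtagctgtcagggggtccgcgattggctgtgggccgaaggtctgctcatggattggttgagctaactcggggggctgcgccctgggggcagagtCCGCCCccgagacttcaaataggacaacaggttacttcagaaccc
The letters searched, on both strands, were AANNGAAA (IRF), TGANTCA (AP-1), TTGCNNAA (C/EBP), AGAACA (glucocorticoid receptor), CCGGAAGT (ETS), GTAAACA (FOX), GGGCGG (SP1) and, by name, the NF-kB consensus. F11r held 1 AP-1 match at -109 from the start and 1 SP1 match at -50, and Cldn5 held 1 SP1 match at -45, both SP1 matches on the minus strand. No matches overlapped in these windows. In 32534 windows of the same kind (250 bases before and 50 after a start), 7.79% held the AP-1 letters and 35.9% the SP1 letters. Of the other genes, Ocln, Marveld2, Lsr, Tjp1 and Cgnl1 also had windows, and the AP-1 letters occurred in that of Lsr.

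After LPS the genes moved apart. In the hippocampus the strand gene Cldn5 fell at 6 and 12 h, while the adhesion molecule genes F11r and Jam2 rose at 12 and 24 h. In the cortex F11r rose at 12 and 24 h and the adherens junction gene Cdh5 at 12 h. These calls were made within each tissue and do not show that the tissues differed. Cldn5 at 6 h had a log2 fold change of -0.40 in both tissues, called in the hippocampus alone. Cdh5 at 12 h had 0.75 in the hippocampus, not called, and 0.73 in the cortex. Ocln, Marveld2, Lsr, Tjp1 and Cgnl1 passed the test against saline at no time in either tissue.

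Genes were tested with edgeR's quasi-likelihood test, adjusted by the Benjamini-Hochberg method over all genes of a comparison and called below 0.05. At 6 h in the hippocampus 0 of 9 genes were called higher and 1 lower, against 2.96% and 2.15% of 17289 genes tested. At 12 h 2 were higher and 1 lower (6.07% and 6.28% of all genes), and at 24 h 2 were higher and 0 lower (6.76% and 6.6%). At 6 h in the cortex edgeR and DESeq2 each called 0 of 9 in either direction (2.3% and 1.2% of 17111 genes by edgeR), with 3 at an unadjusted p under 0.05. At 12 h 2 were higher and 0 lower (4.13% and 2.99%), and at 24 h 1 was higher and 0 lower (3.73% and 2.38%). At an unadjusted p under 0.05 there were 5, 6 and 4 of 9 at 6, 12 and 24 h in the hippocampus and 3, 5 and 6 in the cortex, against 2515, 4120 and 4403 of 17289 genes in the hippocampus and 3250, 3332 and 2832 of 17111 in the cortex. DESeq2 called 0, 3 and 3 higher and 1, 1 and 0 lower in the hippocampus, and 0, 2 and 2 higher and 0 lower in the cortex. Over all genes it called 551, 1056 and 1180 higher and 409, 1163 and 1166 lower in the hippocampus, and 500, 785 and 716 higher and 337, 693 and 490 lower in the cortex. The median log2 fold change of the 9 genes was 0.14, 0.20 and 0.40 at 6, 12 and 24 h in the hippocampus and 0.01, 0.41 and 0.41 in the cortex, against medians over all genes between 0.00 and 0.01.

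**Figure D2:**
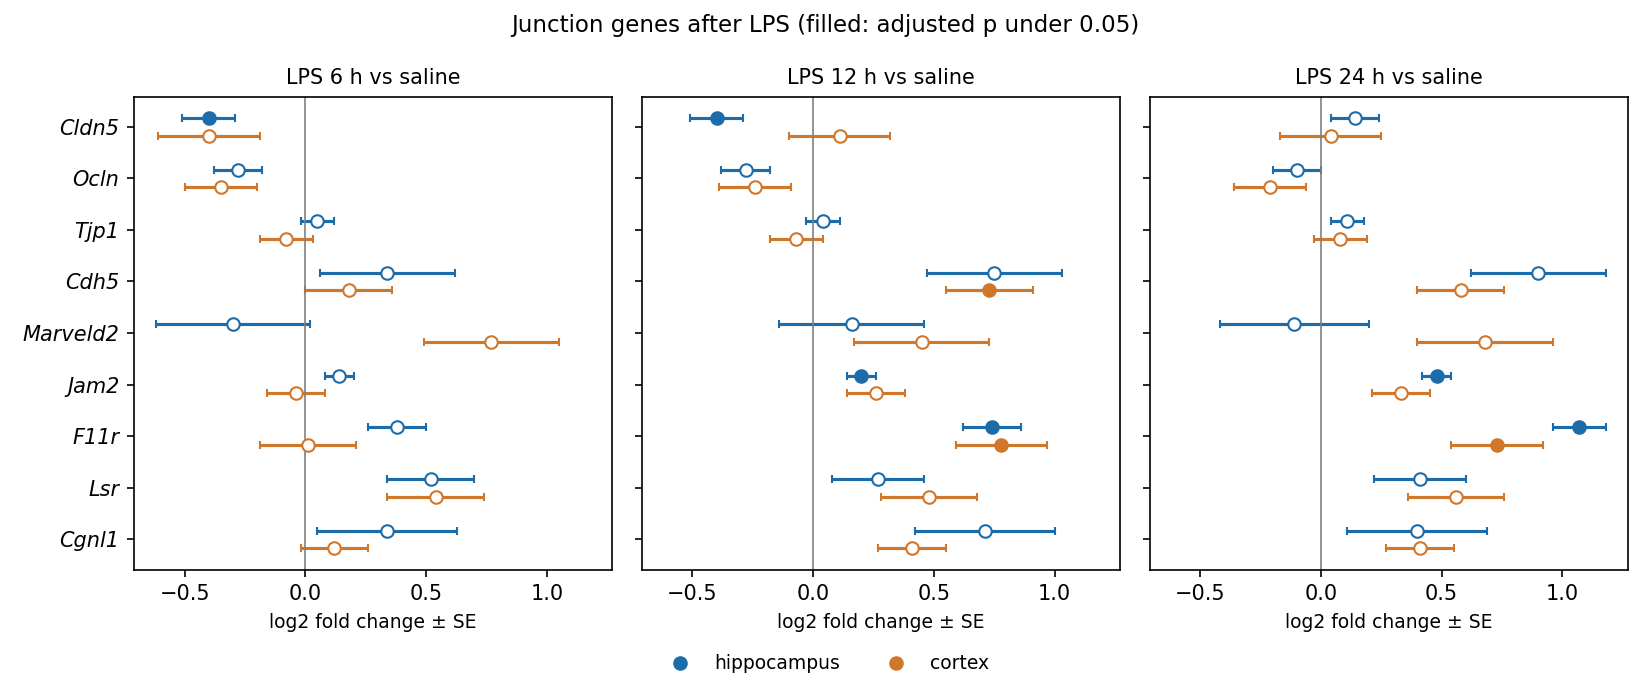
Log2 fold change of LPS over saline with its standard error for each of the 9 genes at 6, 12 and 24 h, hippocampus (blue) above cortex (orange). Filled points have an adjusted p under 0.05. Cldn5 lies at -0.40 in the hippocampus at 6 and 12 h and F11r at 1.07 at 24 h.

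Cldn5 encodes claudin-5, the main claudin of brain endothelium (ENSMUSG00000041378.1, GRCm38 chromosome 16, 18776847 to 18778262, + strand). In the hippocampus it was at 33.4, 30.7 and 38.1 CPM after saline, 27.0, 23.5, 27.4 and 25.5 CPM at 6 h, 22.0, 29.3, 26.9 and 24.7 CPM at 12 h, and 42.0, 30.7, 36.9 and 40.7 CPM at 24 h. All LPS libraries of 6 and 12 h lay below all saline libraries, and those of 24 h overlapped them. Cldn5 fell by 0.40 ± 0.11 (log2, SE) at 6 h, a change of -24.3% (adjusted p = 0.0319), and by 0.40 ± 0.11 at 12 h, a change of -24.2% (adjusted p = 0.0166). At 24 h it was 0.14 ± 0.10 above saline (adjusted p = 0.431). The later LPS group was higher than the earlier ones: by 0.55 ± 0.10 at 24 h over 6 h (adjusted p = 0.0017) and by 0.54 ± 0.10 at 24 h over 12 h (adjusted p = 0.00627). The difference between LPS at 24 h and LPS at 6 or 12 h was called whichever 1 library was left out, and the falls against saline were not. At 6 h the call was lost without saline A222 or A226 or LPS A240, A241 or A243 (-0.42 to -0.31, adjusted p = 0.0533 to 0.14), and at 12 h without saline A222 or A226 or LPS A258 or A261 (-0.41 to -0.31, adjusted p = 0.052 to 0.0859). Both were also lost without A222 and LPS 12 h A261 together, the hippocampal libraries with the most choroid plexus RNA (-0.41 and -0.39, adjusted p = 0.123 and 0.112).

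In the cortex Cldn5 was at 49.1, 38.6 and 41.5 CPM after saline, 34.9, 23.9, 37.9 and 33.1 CPM at 6 h, 35.3, 35.0, 57.5 and 57.5 CPM at 12 h, and 55.5, 46.5, 36.5 and 38.1 CPM at 24 h. The libraries of 6 h all lay below those of saline, the later ones on both sides of them. None of the cortical differences from saline passed (-0.40 ± 0.21 at 6 h, adjusted p = 0.325; 0.11 ± 0.21 at 12 h, adjusted p = 0.83; 0.04 ± 0.21 at 24 h, adjusted p = 0.968). At 12 h the cortical libraries A260 and A261, with the higher Cldn5, had 264 and 320 CPM of 6 summed microglial markers, against 193 and 190 CPM in A258 and A259. Summed endothelial markers split in the same way, at 373 and 403 CPM in A260 and A261 against 330 and 335 CPM in A258 and A259. The part of microglia or of the amount of endothelial RNA in these values was not tested.

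**Figure D3:**
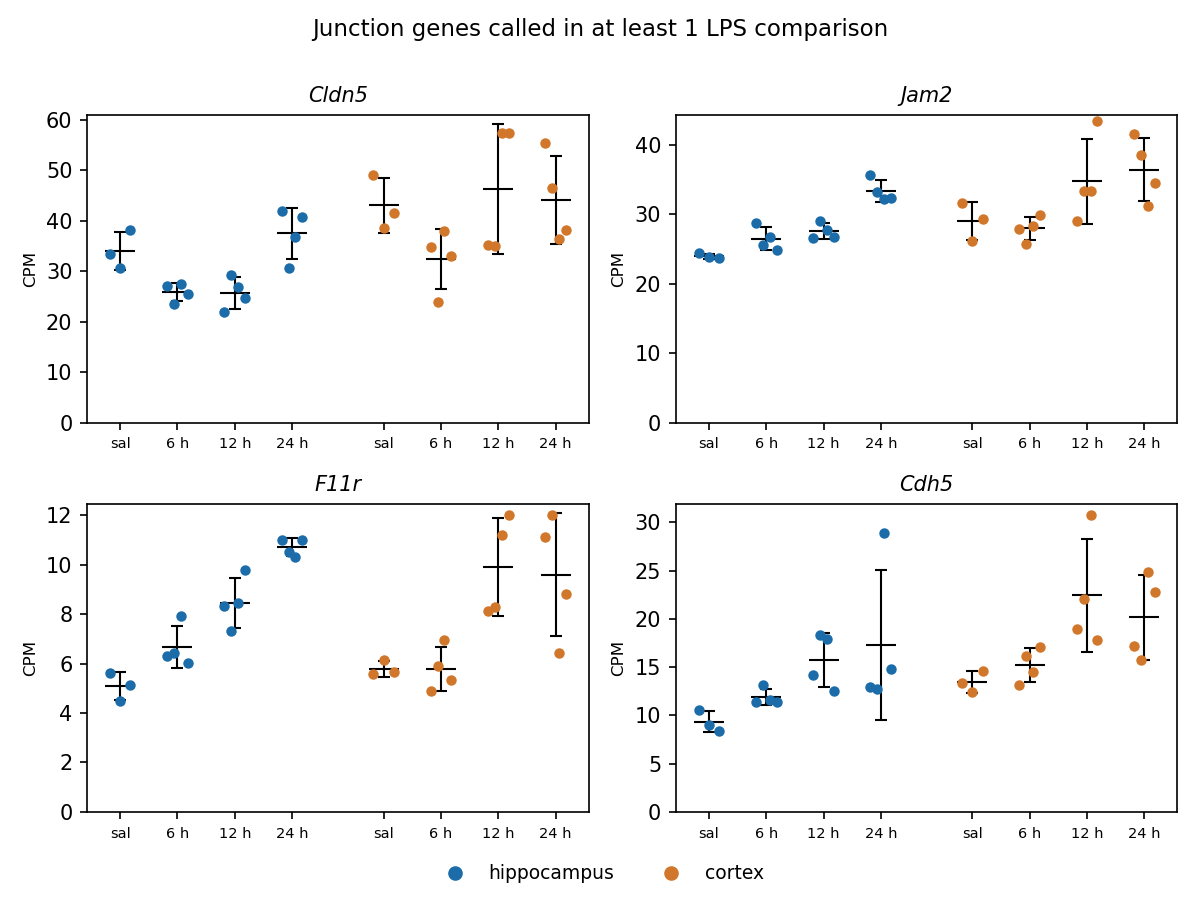
CPM of Cldn5, Jam2, F11r and Cdh5 in each library (points) with group mean and SD (black) for saline (sal) and LPS at 6, 12 and 24 h, hippocampus (blue) and cortex (orange). In the hippocampus Cldn5 is at 23.5 to 27.4 CPM at 6 h, below the saline libraries (30.7 to 38.1 CPM), and F11r is at 10.3 to 11 CPM at 24 h, above them (4.49 to 5.63 CPM).

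F11r encodes JAM-A, a junctional adhesion molecule (ENSMUSG00000038235.4, chromosome 1, 171437535 to 171464603, + strand). Libraries of the hippocampus had 5.63, 4.49 and 5.15 CPM after saline, 6.30, 6.42, 7.94 and 6.04 CPM at 6 h, 8.31, 7.33, 8.43 and 9.79 CPM at 12 h, and 11, 10.5, 10.3 and 11 CPM at 24 h. Every LPS library lay above every saline library, and those of 24 h lay above those of 12 h. F11r rose by 0.74 ± 0.12 at 12 h (adjusted p = 8.61e-05) and by 1.07 ± 0.11 at 24 h, 2.1-fold (adjusted p = 5.16e-07). At 6 h the difference was 0.38 ± 0.12 (adjusted p = 0.068). LPS at 24 h was also above LPS at 6 h, by 0.69 ± 0.11 (adjusted p = 0.000126). The hippocampal rises at 12 and 24 h were called in all 11 alternative settings, leaving out each library in turn included.

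F11r in the cortex was at 5.56, 6.13 and 5.64 CPM after saline and 4.90, 5.88, 6.97 and 5.34 CPM at 6 h, with the groups overlapping. It was at 8.13, 8.28, 11.2 and 12.0 CPM at 12 h and 11.1, 12.0, 6.44 and 8.82 CPM at 24 h, all above the saline libraries. F11r rose by 0.78 ± 0.19 at 12 h (adjusted p = 0.0152) and by 0.73 ± 0.19 at 24 h (adjusted p = 0.0268), and at 6 h the difference was 0.01 ± 0.20 (adjusted p = 0.978). It was higher at 12 h than at 6 h by 0.77 ± 0.18 (adjusted p = 0.0358) and at 24 h than at 6 h by 0.72 ± 0.18 (adjusted p = 0.0456). At 12 h the call against saline was lost without saline A223 or A226 or LPS A260 or A261 (0.66 to 0.76, adjusted p = 0.0534 to 0.0742), and at 24 h without any saline library or LPS A274 or A275 (0.60 to 0.78, adjusted p = 0.0589 to 0.112). The calls against LPS at 6 h were likewise lost without LPS 6 h A240, A241 or A243, without A260 or A261 of 12 h, and without A274, A275 or A278 of 24 h (0.60 to 0.79, adjusted p = 0.0543 to 0.15).

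Jam2 encodes JAM-B, a junctional adhesion molecule of endothelium (ENSMUSG00000053062.15, chromosome 16, 84774123 to 84825928, + strand). Hippocampal levels were 24.4, 23.9 and 23.7 CPM after saline, 28.8, 25.6, 26.8 and 24.9 CPM at 6 h, 26.6, 29.1, 27.7 and 26.8 CPM at 12 h, and 35.7, 33.2, 32.2 and 32.4 CPM at 24 h. Every LPS library lay above the saline ones, and those of 24 h were the highest. Jam2 rose by 0.20 ± 0.06 at 12 h (adjusted p = 0.0321) and by 0.48 ± 0.06 at 24 h (adjusted p = 5.95e-06), and at 6 h the difference was 0.14 ± 0.06 (adjusted p = 0.277). It was higher at 24 h than at 6 h by 0.34 ± 0.06 (adjusted p = 0.000409) and at 24 h than at 12 h by 0.27 ± 0.06 (adjusted p = 0.00893), and these calls and that of 24 h against saline stood whichever 1 library was left out. The call at 12 h was lost without saline A222, A224 or A226 or LPS A259 (0.18 to 0.22, adjusted p = 0.0566 to 0.119), without the filter on low counts (0.18, adjusted p = 0.12), and without both A222 and LPS 12 h A261 (0.23, adjusted p = 0.0744).

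In the cortex Jam2 was at 31.6, 26.1 and 29.4 CPM after saline, 27.9, 25.8, 28.3 and 29.9 CPM at 6 h, 29.0, 33.4, 33.3 and 43.4 CPM at 12 h, and 41.6, 38.5, 31.2 and 34.5 CPM at 24 h. Libraries of 12 and 24 h overlapped those of saline. The differences from saline, -0.04 ± 0.12, 0.26 ± 0.12 and 0.33 ± 0.12 at 6, 12 and 24 h, did not pass (adjusted p = 0.862, 0.228 and 0.132).

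Microglial markers moved alongside F11r and Jam2. In the hippocampus their summed level was 152 to 197 CPM after saline, 130 to 170 CPM at 6 h, 189 to 204 CPM at 12 h and 272 to 299 CPM at 24 h, where 6 of 6 markers rose, and at 12 h 2 of 6 did. In the cortex it was 140 to 191 CPM after saline and 115 to 152 CPM at 6 h. It was 190 to 320 CPM at 12 h and 213 to 295 CPM at 24 h there. At 6, 12 and 24 h in the cortex 0, 2 and 3 of 6 markers were called higher, against 2.3%, 4.13% and 3.73% of all genes. In the hippocampus 6.07% and 6.76% of all genes were called higher at 12 and 24 h. Within the cortex at 24 h, A274 and A275 had 295 and 290 CPM and A276 and A278 had 213 and 218 CPM, and F11r and Jam2 were higher in A274 and A275 as well. This split was not particular to microglia. Summed endothelial markers were at 440 and 388 CPM in A274 and A275 against 350 and 365 CPM in A276 and A278. Sums of arterial and venous endothelial markers were at 183 and 173 CPM against 146 and 138 CPM. Neutrophil genes rose at all times in both tissues (3 of 3 tested, but 2 of 3 in the cortex at 24 h). The part of microglia, blood cells or the amount of endothelial RNA in the junction values was not tested.

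Cdh5 encodes VE-cadherin, the cadherin of endothelial adherens junctions (ENSMUSG00000031871.9, chromosome 8, 104101625 to 104144511, + strand). In the cortex it was at 13.4, 12.4 and 14.6 CPM after saline, 13.2, 16.2, 14.5 and 17.1 CPM at 6 h, 19.0, 22.1, 30.8 and 17.8 CPM at 12 h, and 17.2, 15.7, 24.9 and 22.8 CPM at 24 h. The libraries of 12 and 24 h all lay above those of saline. Cdh5 rose by 0.73 ± 0.18 at 12 h (adjusted p = 0.0206), whereas 0.18 ± 0.18 at 6 h and 0.58 ± 0.18 at 24 h did not pass (adjusted p = 0.61 and 0.0785). The call at 12 h was lost without any saline library or LPS A260 (0.53 to 0.79, adjusted p = 0.0519 to 0.0788) and without the filter (adjusted p = 0.0685). DESeq2 called Cdh5 at 24 h in the cortex as well (adjusted p = 0.0279).

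In the hippocampus Cdh5 was at 10.6, 9.05 and 8.42 CPM after saline, 11.4, 13.2, 11.6 and 11.4 CPM at 6 h, 14.2, 18.3, 17.9 and 12.5 CPM at 12 h, and 12.9, 12.7, 28.9 and 14.8 CPM at 24 h. Every LPS library lay above every saline library, and at 24 h A276 stood at 28.9 CPM beside 12.7 to 14.8 CPM in the others. The differences were 0.34 ± 0.28, 0.75 ± 0.28 and 0.90 ± 0.28 at 6, 12 and 24 h (adjusted p = 0.687, 0.113 and 0.0522). Without A276 the value at 24 h was 0.53 (adjusted p = 0.00645), and it was 1.02 without A274 and 1.03 without A275 (adjusted p = 0.0344 and 0.0319). DESeq2 gave adjusted p = 0.0427 at 12 h and 0.0101 at 24 h. Without the filter on low counts Cdh5 was called at all 3 times (0.33, 0.73 and 0.88, adjusted p = 0.0244, 2.77e-12 and 4.87e-18). Cdh5 had 209 to 696 counts per library and itself passed the filter. Its fold changes were nearly the same in both fits. The smaller p thus came from the same libraries and without a larger difference. Its cause was not tested. A276 also had the highest cortical Cdh5 of its group.

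By group, markers of arterial and venous endothelium, a list of 8 genes, were also higher alongside Cdh5. Their summed level in the cortex was 114 to 130 CPM after saline, 117 to 131 CPM at 6 h, 139 to 174 CPM at 12 h and 138 to 183 CPM at 24 h, with 1, 3 and 2 of 8 called higher and 0 lower at 6, 12 and 24 h. In the hippocampus it was 125 to 134 CPM after saline, 141 to 155 CPM at 6 h, 155 to 205 CPM at 12 h and 163 to 199 CPM at 24 h, with 1, 2 and 4 called higher and 0 lower. Of all genes 2.3%, 4.13% and 3.73% were called higher in the cortex at these times, and 2.96%, 6.07% and 6.76% in the hippocampus. Within groups the picture was mixed. At 12 h the library highest in Cdh5 also had the highest sum, hippocampal A259 (205 CPM) and cortical A260 (174 CPM). At 24 h hippocampal A276, highest in Cdh5, had the lowest sum (163 CPM). Cortical A274 and A275, lowest in Cdh5 at 24 h, had the highest sums (183 and 173 CPM). The part of these markers in the values of Cdh5 was not tested.

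Ocln encodes occludin, a membrane protein of the strands (ENSMUSG00000021638.12, chromosome 13, 100496507 to 100552718, - strand). Its hippocampal levels were 13.6, 12.2 and 13.2 CPM after saline, 10.8, 11.1, 11.5 and 9.58 CPM at 6 h, 8.99, 9.74, 10.7 and 12.9 CPM at 12 h, and 11.9, 11.8, 12.3 and 12.6 CPM at 24 h. At 6 h all LPS libraries lay below saline, at 12 h all but A261 did, and at 24 h the groups overlapped. The differences of -0.28 ± 0.10, -0.28 ± 0.10 and -0.10 ± 0.10 did not pass (adjusted p = 0.128, 0.064 and 0.604). Without LPS A261 the value at 12 h was -0.40 (adjusted p = 0.0052), and without the filter it was -0.30 (adjusted p = 0.0326). In the cortex Ocln was at 8.64, 9.82 and 8.44 CPM after saline and 6.33, 8.10, 6.74 and 6.64 CPM at 6 h, below saline in every library, with a difference of -0.35 ± 0.15 (adjusted p = 0.209). At 12 h the cortical libraries, 6.68 to 8.43 CPM, lay below saline, and at 24 h (6.0 to 10.1 CPM) they overlapped it. These differences were -0.24 ± 0.15 and -0.21 ± 0.15 (adjusted p = 0.396 and 0.562).

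Marveld2 encodes tricellulin, which sits where 3 cells meet, and Lsr encodes angulin-1, the protein that recruits tricellulin there. Marveld2 (ENSMUSG00000021636.14, chromosome 13, 100595957 to 100616971, - strand) had group means of 0.635 to 1.13 CPM, set by few counts. Its cortical values were 1.0, 1.32, 1.06 and 1.11 CPM at 6 h after LPS, against 0.497, 0.536 and 0.872 CPM after saline, without overlap, a difference of 0.77 ± 0.28 that did not pass (adjusted p = 0.149). At 24 h the cortical values, 0.919 to 1.23 CPM, also lay above saline (0.68 ± 0.28, adjusted p = 0.201), and at 12 h they overlapped (0.45 ± 0.28, adjusted p = 0.415). Hippocampal values overlapped throughout (0.63 to 1.29 CPM after saline, 0.595 to 0.889 CPM at 6 h, 0.703 to 1.36 CPM at 12 h and 0.521 to 1.25 CPM at 24 h), and the differences were -0.30 ± 0.32, 0.16 ± 0.30 and -0.11 ± 0.31 at 6, 12 and 24 h (adjusted p = 0.763, 0.818 and 0.879).

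Lsr (ENSMUSG00000001247.16, chromosome 7, 30957770 to 30973464, - strand) was at 3.04, 1.91 and 1.91 CPM in saline hippocampus and 3.44, 3.14, 3.17 and 3.48 CPM at 6 h, without overlap, and overlapped saline at 12 h (2.42 to 3.2 CPM) and 24 h (2.24 to 3.7 CPM). In the cortex it was at 2.44 to 3.13 CPM after saline and, at 6 h, above that at 3.48 to 4.85 CPM, with overlap at 12 h (2.77 to 4.86 CPM) and 24 h (3.04 to 5.11 CPM). At 6, 12 and 24 h it differed by 0.52 ± 0.18, 0.27 ± 0.19 and 0.41 ± 0.19 in the hippocampus (adjusted p = 0.128, 0.423 and 0.166) and by 0.54 ± 0.20, 0.48 ± 0.20 and 0.56 ± 0.20 in the cortex (adjusted p = 0.16, 0.181 and 0.125). In the hippocampus it was called without saline A222, the library with the highest Lsr of its group (0.79 at 6 h, adjusted p = 0.0209; 0.68 at 24 h, adjusted p = 0.0276), and at 24 h without LPS A276 (0.54, adjusted p = 0.0491). Gm4673, an antisense gene that overlaps Lsr, reached 6.86 CPM and rose in the hippocampus at 12 h (0.63 ± 0.15, adjusted p = 0.00607) and 24 h (0.71 ± 0.15, adjusted p = 0.002). As the strand setting of the counts is not given in the sources used here, values of Lsr are uncertain.

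Tjp1 encodes ZO-1, the scaffold under the strands (ENSMUSG00000030516.14, chromosome 7, 65296165 to 65527781, - strand). Its group means were 76.3 ± 6.84 CPM after saline (n = 3) and 79.5 ± 3.14, 78.4 ± 5.84 and 82.4 ± 8.45 CPM at 6, 12 and 24 h (SD, n = 4 each) in the hippocampus, and 72.4 ± 9.54 CPM and 68.2 ± 9.25, 68.8 ± 7.81 and 76.4 ± 5.74 CPM in the cortex. In every comparison with saline the groups overlapped, and the differences lay between -0.08 and 0.11 (adjusted p = 0.371 to 0.839). At 24 h the approximate 95% interval of the log2 difference, built from its SE, was -0.03 to 0.26 in the hippocampus and -0.14 to 0.29 in the cortex.

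Cgnl1 encodes paracingulin, which links junctions to actin and microtubules (ENSMUSG00000032232.14, chromosome 9, 71626509 to 71771602, - strand). In the hippocampus it was at 17.5, 8.70 and 9.01 CPM after saline, 18, 13.8, 14.7 and 13.2 CPM at 6 h, 14, 17.6, 17.6 and 27.3 CPM at 12 h, and 12.6, 14.1, 19.6 and 15.7 CPM at 24 h. LPS 12 h A261 (27.3 CPM) and saline A222 (17.5 CPM) were high in their groups. These 2 libraries also had the highest share of Ttr, the choroid plexus gene of transthyretin, at 0.226% of counts in A261 and 0.115% in A222, against at most 0.0962% in any other library. With all libraries the differences were 0.34 ± 0.29, 0.71 ± 0.29 and 0.40 ± 0.29 at 6, 12 and 24 h (adjusted p = 0.695, 0.149 and 0.439). Without these 2 libraries they were 0.76, 0.90 and 0.82 (adjusted p = 0.0148, 0.00329 and 0.00367), and without saline A222 alone the value at 12 h was 1.13 (adjusted p = 0.0187). Without the filter, with every library kept, they were 0.33, 0.70 and 0.39 (adjusted p = 0.0093, 1.23e-12 and 0.000573). Cgnl1 had 231 to 667 counts per library and itself passed the filter. As for Cdh5, these smaller p came from the same libraries and without a larger difference. Their cause was not tested. The part of choroid plexus in the values of Cgnl1 was not tested further.

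Cgnl1 in the cortex was at 14.1, 18.3 and 13.8 CPM after saline, 16.3, 20.4, 13.9 and 15.4 CPM at 6 h, 20.5, 23.8, 19.2 and 17.8 CPM at 12 h and 18.9, 20.1, 18.5 and 23.4 CPM at 24 h. At 6 h the groups overlapped, at 12 h 3 of 4 libraries lay above saline, and at 24 h all 4 did. The differences of 12 and 24 h, 0.41 ± 0.14 each, did not pass (adjusted p = 0.0771 and 0.0966). Without saline A224, the highest of its group and the cortical library with the highest Ttr share (0.0962%), they were 0.56 and 0.55 (adjusted p = 0.028 and 0.0357). Without the filter on low counts the difference at 12 h was 0.42 (adjusted p = 0.0487).

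**Figure D4:**
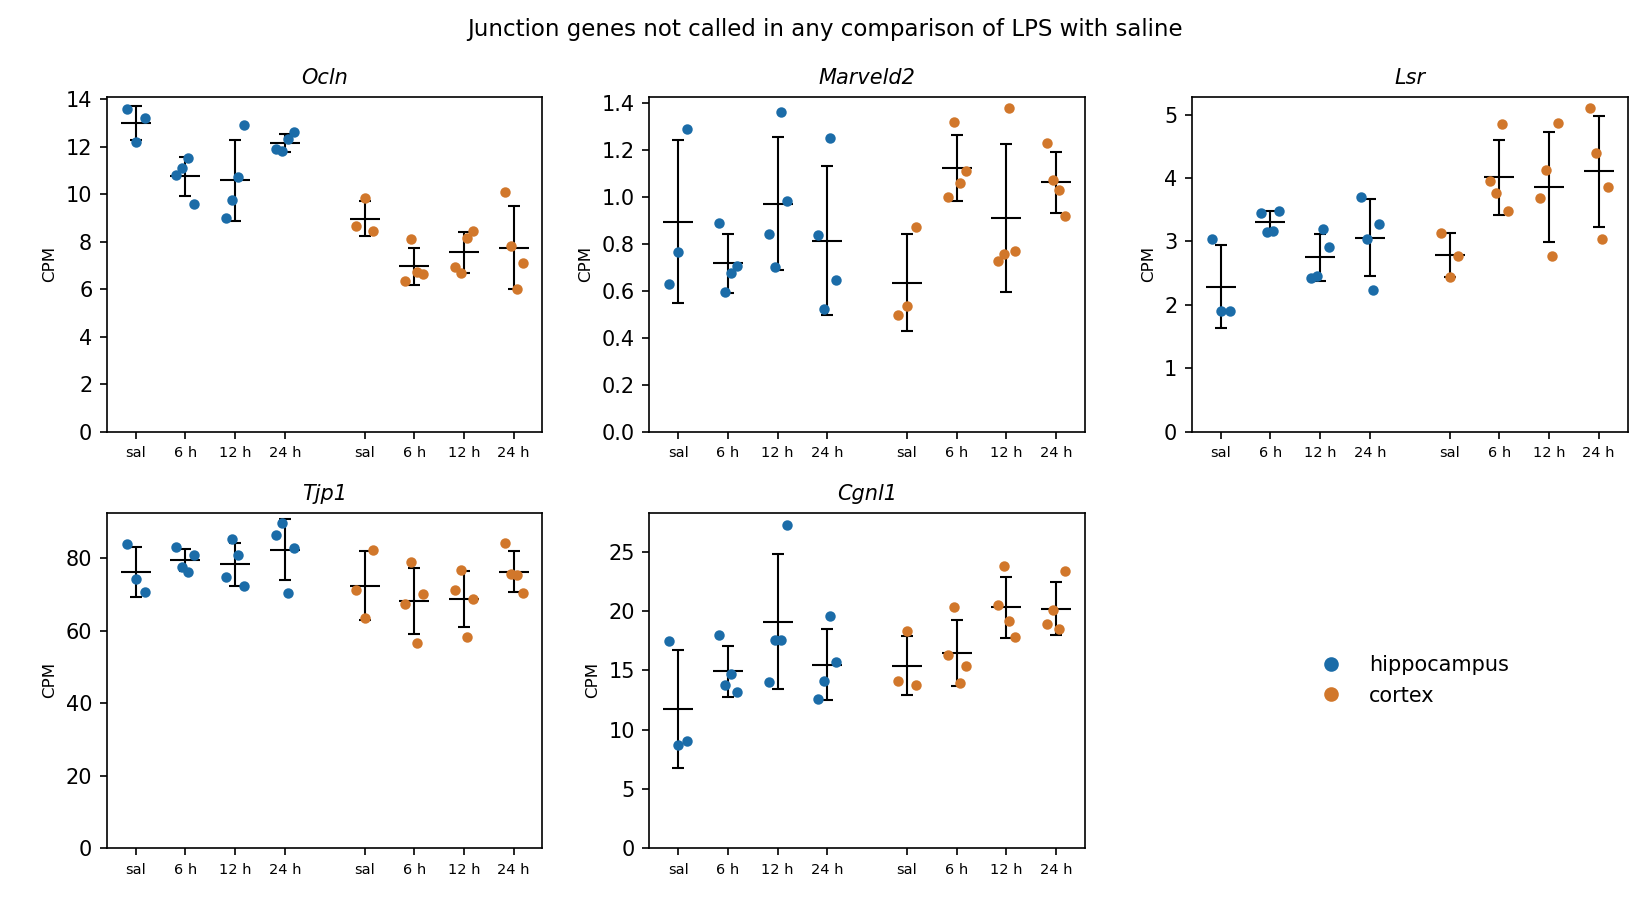
CPM of Ocln, Marveld2, Lsr, Tjp1 and Cgnl1, the genes not called against saline, in each library (points) with group mean and SD (black) for saline (sal) and LPS at 6, 12 and 24 h, hippocampus (blue) and cortex (orange). Ocln at 6 h lies below saline in both tissues. The highest hippocampal Cgnl1 value is 27.3 CPM in the LPS 12 h group and 17.5 CPM in the saline group.

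Between LPS times, 3 of the 9 genes were called at 24 h against 6 h in the hippocampus, all higher (4.57% of genes higher, 4.92% lower), and 2 at 24 h against 12 h, both higher (0.885% and 1.26%). At 12 h against 6 h edgeR and DESeq2 each called 0 of 9 (1.14% and 1% of all genes by edgeR; 1 of the 9 at an unadjusted p under 0.05). In the cortex edgeR called 1 of 9, F11r, higher at 12 h and at 24 h than at 6 h (0.614% and 0.789% of genes higher, 0.614% and 1.04% lower). DESeq2 called 2 in each, adding Cdh5 at 12 h against 6 h (0.55, adjusted p = 0.0433) and Jam2 at 24 h against 6 h (0.38, adjusted p = 0.0415). Its all-gene calls also outnumbered those of edgeR in both directions. For 12 h against 6 h they were 244 higher and 245 lower, against 105 and 105 by edgeR. For 24 h against 6 h they were 301 lower, against 178 by edgeR, and more higher than the 135 of edgeR. At 24 h against 12 h 0 of 9 were called by either tool in the cortex, where edgeR called 0% of genes (310 at an unadjusted p under 0.05) and 0 of the 9 had an unadjusted p under 0.05.

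Whether the 2 tissues responded differently was tested as an interaction over all 30 libraries. edgeR and DESeq2 each called 0 of 9 genes at any time, and edgeR called 0% of 17650 genes at 6 h (1031 at an unadjusted p under 0.05), 0.0397% higher and 0.0567% lower at 12 h and 0.068% higher and 0.0567% lower at 24 h. At an unadjusted p under 0.05 there were 1, 0 and 0 of the 9 at 6, 12 and 24 h. The hippocampal response of Cldn5 at 12 h minus the cortical one was -0.51 ± 0.25 (approximate 95% interval -1.02 to 0.00, unadjusted p = 0.0566, adjusted p = 0.519), and that of Marveld2 at 6 h was -1.05 ± 0.43 (-1.91 to -0.19, adjusted p = 0.819). For F11r at 24 h it was 0.34 ± 0.23 (-0.12 to 0.80, adjusted p = 0.732). For Cldn5 at 6 h it was 0.01 ± 0.26 (-0.50 to 0.52, adjusted p = 0.996). For Cdh5 it was 0.03 ± 0.33 at 12 h (-0.64 to 0.69, adjusted p = 0.986) and 0.32 ± 0.33 at 24 h (-0.35 to 0.99, adjusted p = 0.85). Intervals here and above are the log2 difference ± 2 SE. They only approximate 95% intervals and are not adjusted for the number of genes.

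In saline mice, 1 of the 9 genes was higher and 1 lower in hippocampus than in cortex (19.9% and 17.2% of all genes). Ocln averaged 13.0 ± 0.699 CPM in hippocampus and 8.97 ± 0.748 CPM in cortex (SD, n = 3 each), without overlap, a difference of 0.54 ± 0.13 (adjusted p = 0.00138). Jam2 averaged 24.0 ± 0.346 CPM in hippocampus and 29.1 ± 2.77 CPM in cortex, again without overlap (-0.28 ± 0.10, adjusted p = 0.0337). With the mouse as a replicate block Ocln stayed called (0.49, adjusted p = 0.0152), Jam2 did not (-0.22, adjusted p = 0.159), and Cdh5 and Cgnl1 were called lower in hippocampus (-0.63, adjusted p = 0.00634, and -0.84, adjusted p = 0.0232). In that fit the saline contrast rests on A224 and A226 alone, the saline mice with both tissues. Hippocampal A222 and cortical A223 have no partner and do not enter it. Cgnl1 was at 8.70 and 9.01 CPM in hippocampus and 18.3 and 13.8 CPM in cortex of A224 and A226. Jam2 was also not called without hippocampal A222, A224 or A226 or cortical A223 or A226 (-0.29 to -0.24, adjusted p = 0.0625 to 0.114), and Cgnl1 was called without hippocampal A222 (-0.78, adjusted p = 0.00771).

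Other genes of the junction were followed in a list of 47, of which 41 could be tested within a tissue. At 6, 12 and 24 h, 1, 7 and 8 of them were called higher and 1, 2 and 3 lower in the hippocampus, and 0, 4 and 3 higher and 1, 1 and 0 lower in the cortex. The shares of all genes were 2.96%, 6.07% and 6.76% higher and 2.15%, 6.28% and 6.6% lower in the hippocampus, and 2.3%, 4.13% and 3.73% higher and 1.2%, 2.99% and 2.38% lower in the cortex. The list had median log2 fold changes between -0.05 and 0.03. Most calls were adhesion molecules and proteases. Esam, an adhesion molecule of endothelial contacts, averaged 10.3 ± 1.01 CPM after saline (n = 3) and 14.5 ± 1.52, 16.4 ± 1.37 and 16.1 ± 2.43 CPM at 6, 12 and 24 h (SD, n = 4 each) in the hippocampus and rose at every time there (0.48, 0.67 and 0.64; adjusted p = 0.0083, 0.000138 and 0.00021). In the cortex Esam rose at 12 and 24 h (0.90 and 0.85, adjusted p = 8.71e-05 and 0.000173). Pecam1, the adhesion molecule PECAM-1 of endothelial contacts, rose at 12 and 24 h in hippocampus (0.48 at both, adjusted p = 0.0302 and 0.0277) and cortex (0.56 and 0.53, adjusted p = 0.00278 and 0.0047).

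Ptprb encodes VE-PTP, the phosphatase that acts on VE-cadherin. It averaged 23.7 ± 0.891 CPM after saline (n = 3) and 11.1 ± 1.23, 12.9 ± 2.74 and 25.6 ± 3.56 CPM at 6, 12 and 24 h (SD, n = 4 each) in the hippocampus. Ptprb fell by 1.10 ± 0.13 at 6 h and by 0.87 ± 0.13 at 12 h there (adjusted p = 4.34e-05 and 0.000187), and in the cortex Ptprb fell by 1.54 ± 0.38 at 6 h (adjusted p = 0.0456). At 24 h in the hippocampus it was again higher than at 6 h and at 12 h, as Cldn5 was. Of the genes for proteases that can cleave junction or basement membrane proteins, Mmp2 rose at 12 and 24 h in hippocampus (0.58 and 0.54, adjusted p = 0.0251 and 0.0363) and cortex (0.73 and 0.81, adjusted p = 0.00833 and 0.00406), and Adam10 (0.16 and 0.20) and Adam17 (0.30 and 0.40) rose at 12 and 24 h in the hippocampus (adjusted p = 0.0438 and 0.0104 for Adam10, 0.0165 and 0.00148 for Adam17).

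In the hippocampus the kinase gene Rock1 rose at 12 and 24 h (0.23 at both, adjusted p = 0.0473 and 0.0458). Nectin2, a nectin of adherens junctions, rose at 24 h in hippocampus (0.40, adjusted p = 0.0259) and at 12 h in cortex (0.59, adjusted p = 0.00722). The kinase gene Src fell by 0.15 and 0.17 at 12 and 24 h in the hippocampus (adjusted p = 0.0236 and 0.0123), and Mylk, the myosin light chain kinase gene, fell by 0.33 at 24 h in hippocampus (adjusted p = 0.00165) and by 0.34 at 12 h in cortex (adjusted p = 0.0415). Cldn10 fell by 0.26 at 24 h in the hippocampus (adjusted p = 0.0215), the one other claudin called of 6 tested there.

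The 18 endothelial markers, which include Esam, Pecam1 and Ptprb, went both ways. In the hippocampus 2, 3 and 4 were called higher and 5, 6 and 2 lower at 6, 12 and 24 h. In the cortex 1, 5 and 4 were higher and 4, 2 and 1 lower. Of all genes 2.96%, 6.07% and 6.76% were higher and 2.15%, 6.28% and 6.6% lower in the hippocampus. In the cortex 2.3%, 4.13% and 3.73% were higher and 1.2%, 2.99% and 2.38% lower. Median log2 fold changes of the list were -0.05, -0.04 and 0.14 in the hippocampus and -0.19, -0.03 and 0.08 in the cortex. Esam was 1 of the 2 called higher in the hippocampus at 6 h. The 5 that fell in the hippocampus at 6 h, named after their values were seen, were Ptprb, Itm2a (-0.88, adjusted p = 1.08e-05), the transcription factor gene Sox17 (-0.75, adjusted p = 0.0143), the receptor gene Tie1 (-0.68, adjusted p = 0.00132) and the drug efflux pump gene Abcb1a (-0.58, adjusted p = 0.028).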

How the data were processed

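Poly(A)-selected, strand-marking libraries were read as 150 bp pairs, per the labels' protocols. The deposited table holds whole-number counts per gene for 30 libraries. The submitters' processing notes name Trim Galore 0.4.1, FastQC, STAR 2.6.0a, DESeq2 and GRCm38 (mm10). Counter, strand setting and annotation were not given in the sources used here. Of 48820 identifiers 48058 (98.4%) had a symbol in the reference tables, and those without held at most 0.29% of a library. Gene coordinates and exon lengths are from GENCODE on GRCm38, counted from 1.

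Labels gave each library its tissue, treatment and time. Each tissue was fitted with edgeR 4.0.16 in R 4.3.3 (filterByExpr, minimum count 10, TMM factors, robust glmQLFit, glmQLFTest, two-sided), and both tissues together for differences between them. SE is the absolute log2 fold change over the square root of F. CPM carry TMM factors. RPKM is CPM per kilobase of exon. Calls need an adjusted p below 0.05. The method was tested on simulated data.

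The 9 genes, the lists and the rule that every member is named (other junction genes where called, of which 1 is not reported here) were chosen with earlier results of these data known. Replicates differed beyond sampling noise (chi-square per gene at least 2.23). Labels do not say more on their independence than a mouse code each. These codes pair the tissues: 14 of 16 mice gave both, and the deviations of its tissues from their group means had r of 0.119 at the median (-0.105 to 0.349). Alternatives were DESeq2 size factors, DESeq2 1.42.0, no filter, each library left out, the 2 hippocampal libraries with the most Ttr left out, and a mouse block. Precision is set by counts per gene and by 3 or 4 libraries a group.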

Additional observations from a re-analysis of the deposited data

Results flagged for a closer look

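Among the 9 genes, 54 groups of 4 LPS libraries were searched for a library far from its group, one whose gap to the nearest library, as a share of the group's range, passes Dixon's critical value. Chance flags about 1 in 20 such groups. Cdh5 stood apart in hippocampal LPS 24 h A276, at 28.9 CPM beside 12.7 to 14.8 CPM, a gap of 0.869 of the range. Cdh5 also stood apart in hippocampal LPS 6 h A241, at 13.2 CPM beside 11.4 to 11.6 CPM (gap 0.904). Marveld2 stood apart in cortical LPS 12 h A260, at 1.38 CPM beside 0.728 to 0.77 CPM (gap 0.936). No group of saline libraries could be searched in this way, since each has 3.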

How the results depend on the processing

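No called value of the 9 genes changed sign. Of 1791 alternative values 1575 kept direction and side of the threshold, 49 lost the call, 41 gained one and 126 changed sign while uncalled. Each library was left out in turn, and calls against saline were counted at 6, 12 and 24 h. In the hippocampus 0 to 1, 1 to 2 and 2 to 4 of the 9 were called higher. Those called lower numbered 0 to 1, 0 to 1 and 0. Over all genes 319 to 498, 723 to 1131 and 864 to 1223 were higher there. All-gene counts of lower calls were 165 to 444, 654 to 1141 and 661 to 1109. In the cortex 0, 0 to 2 and 0 to 1 of the 9 were higher and 0 lower. Over all genes 211 to 455, 448 to 647 and 427 to 554 were higher there. All-gene counts of lower calls were 112 to 409, 302 to 566 and 237 to 394. Between LPS times the comparisons were 12 against 6 h, 24 against 6 h and 24 against 12 h. In the hippocampus they called 0 to 1, 3 and 2 of the 9. Over all genes 88 to 227, 555 to 731 and 81 to 159 were higher and 84 to 192, 572 to 724 and 111 to 206 lower. In the cortex they called 0 to 1, 0 to 1 and 0 of the 9. All-gene counts there were 47 to 165, 45 to 129 and 0 higher and 40 to 126, 57 to 217 and 0 lower. Between saline tissues 1 to 2 of the 9 were called. Over all genes 2696 to 3304 were higher and 2547 to 2872 lower in hippocampus than cortex.

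Without a filter on low counts 2 were higher at 6 h, 2 lower at 12 h and 4 higher at 24 h in the hippocampus, and 2 were called at 12 against 6 h. All-gene counts without the filter were 703 higher, 1390 lower, 1260 higher, and 519 higher and 375 lower in these comparisons, against 512, 1085, 1168, 197 and 173 with it. Without both high-Ttr libraries 3 were higher and 0 lower at 6 h and 4 higher at 24 h (all genes, 396 higher and 174 lower at 6 h and 907 higher at 24 h). DESeq2 called 2 in the cortex at 24 h, at 12 against 6 h and at 24 against 6 h (all genes, 716 higher at 24 h, 244 higher and 245 lower at 12 against 6 h). For 24 against 6 h its all-gene calls were 301 lower, against 178 by edgeR, and more higher than the 135 of edgeR. With the mouse as a replicate block (paired tissues) 3 genes differed between saline tissues, where only A224 and A226 are paired, and 0 in any interaction. Over all genes 2774 were higher and 2565 lower in saline hippocampus than cortex in that setting. The interactions had 0 genes at 6 h, 6 higher and 2 lower at 12 h, and 2 higher and 1 lower at 24 h. The cause of these shifts was not tested. DESeq2 size factors moved the all-gene median by at most 0.022. Few counts limit Marveld2 and Lsr, and 3 saline libraries limit every comparison.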

Other observations

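For each of the 9 genes, the genes with the most similar course over the 30 libraries were sought among 12115 genes, by Pearson r of log2 CPM centred within each tissue. The libraries share groups, treatment and dissection, so r describes the samples and carries no test. As these genes were picked for a like course, the changes given for them below describe it again and add no support. Cldn5 was most like Arhgap45 (r = 0.87), Selplg (0.87) and P2ry12 (0.85), P2ry12 being the ADP receptor of microglia. Of these, Arhgap45 and Selplg fell in the hippocampus at 6 h (-0.72, adjusted p = 0.00122, and -1.08, adjusted p = 0.000424) and at 12 h (-0.51, adjusted p = 0.0104, and -0.68, adjusted p = 0.00689), by edgeR. Jam2 was most like Dock2 (0.92), Laptm5 (0.91) and Mcm2 (0.90). F11r was most like Lgals3bp (0.94), Gusb (0.94) and Ednrb (0.92). Ednrb, the endothelin B receptor gene, rose in the hippocampus at 12 and 24 h (0.73 and 1.12, adjusted p = 8.26e-08 and 2.02e-10).

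Cdh5 was most like Col4a1 (0.93), a collagen of the vascular basement membrane, Pecam1 (0.92) and Tubb6 (0.88). Col4a1 rose at 12 and 24 h in hippocampus (0.72 and 0.67, adjusted p = 0.00405 and 0.00611) and cortex (0.86 and 0.78, adjusted p = 0.00198 and 0.00461). Ocln was most like Cavin2 (0.83), Kank3 (0.77) and the endothelial receptor gene Tie1 (0.76). Tjp1 was most like Hivep3 (0.93), Vps13a (0.89) and Btbd7 (0.88), Cgnl1 like Lamp2 (0.76), Piezo1 (0.76) and Gprc5c (0.74), Lsr like Mmgt2 (0.74), Ier5 (0.73) and Gramd3 (0.72), and Marveld2 like Kbtbd3 (0.70), Tmem215 (0.63) and Pnma1 (0.62).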
